A study of Mus musculus with 18 samples.

Results

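The comparison described here set the effect of a Smim30 mutation against the effect of a Smim30 siRNA, gene by gene. It used 12 of the 18 libraries of the series, chosen by sample title, in 4 groups of 3. Peritoneal macrophages came from wild-type mice (WT) or from mice with a mutated Smim30 gene (Mut). IC-21 cells, an established line of mouse peritoneal macrophages obtained from ATCC, were transfected for 24 h with an siRNA against Smim30 (siSmim30) or with control siRNA (siCtrl). All 12 libraries carry the strain label C57BL/6J, and all cells were given lipopolysaccharide (LPS) at 5 ng/ml for 6 h before RNA was taken. No library without LPS was analysed here, so each value describes LPS-treated cells. The age of the mice, the kind of mutation, the relation between the WT and Mut mice and the siRNA sequences are not stated in the labels. The siRNA arm rests on 1 cell line, and the labels name triplicates without saying whether they came from separate mice or cultures, so p-values measure the spread between these libraries, which may be technical.

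Smim30 encodes a small integral membrane protein with a single membrane-spanning segment. LPS binds Toll-like receptor 4 on macrophages, which signals through NF-kB and MAP kinases to cytokine genes and through IRF3 to interferon beta. Secreted interferon then acts back on the cells through its receptor and raises a further set of genes that carry interferon-stimulated response elements. A mutation carried by the mouse is present before the cells are taken, whereas an siRNA lowers a messenger RNA for a limited time by loading the RNA-induced silencing complex, of which Ago2 is the slicing subunit.

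The 12 libraries held 6855245 to 12246311 read pairs assigned to genes. Levels are given in CPM, the usual per-million count, scaled by TMM over the 12 libraries and compared within an arm. The detection floor of 3 counts equalled 0.245 to 0.438 CPM of a library's own total and covers counting error only. The share of counts on ribosomal RNA genes was 1.74 to 2.49% in WT, 0.40 to 1.03% in Mut and 0.195 to 0.484% in IC-21. The macrophage markers Adgre1, Csf1r, Cd68 and Lyz2 were present in every group. Gata6, the transcription factor of large peritoneal macrophages, had 0 counts in all IC-21 libraries against means of 5.37 CPM (WT) and 4.7 CPM (Mut). The 10 fibroblast and mesothelial markers summed to 293 to 325 CPM in WT, 262 to 313 CPM in Mut but at most 0.472 CPM in an IC-21 library. The 7 dendritic cell markers summed to 31.7 to 39.2 CPM in Mut against 16.4 to 18.2 CPM in WT, a gap carried by Batf3 and Ccl22, while IC-21 stood at 6.13 to 8.33 CPM. The 7 B cell markers summed to 109 to 119.9 CPM in WT and 77.3 to 83.1 CPM in Mut, most of it Cd22. The part of such cells in the results below was not tested, and in bulk RNA fewer cells of a type and less RNA per cell cannot be told apart.

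Smim30 itself, listed as 2610001J05Rik on the minus strand of chromosome 6 (13867735 to 13871518, GRCm38), was lowered by the siRNA, and its whole-gene count was not called different in the mutant cells. It stood at 55.8, 65.5 and 64.3 CPM in the WT libraries and at 53.9, 66.9 and 65.9 CPM in the Mut libraries. In IC-21 it stood at 17.4, 15.6 and 17 CPM with siCtrl and at 6.98, 8.96 and 9.46 CPM with siSmim30. The WT and Mut values overlapped, while each siSmim30 library lay under each siCtrl library. The log2 fold change was 0.02 with the mutation (95% interval -0.15 to 0.18, edgeR quasi-likelihood adjusted p = 0.967) and -0.97 with the siRNA (adjusted p = 4.51e-07). The difference between these effects was 0.99 (SE 0.15, adjusted p = 1.85e-05). Gene-level counts therefore check the siRNA label and cannot check a mutation that leaves the transcript in place.

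Few genes were called in both arms, and most differences between the arms were under 2-fold. The interaction is the log2 fold change of Mut against WT minus that of siSmim30 against siCtrl, so a positive value means that the mutation effect was the more positive of the pair. It was called, at an adjusted p under 0.05, for 372 of 14804 genes tested (2.51%). Of these, 185 were positive (1.25%) and 187 negative (1.26%). At an unadjusted p under 0.05 there were 1970 genes. Among the 11735 genes with a mean of at least 1 CPM in both arms, 365 were called (3.11%), with a median absolute difference of 0.390 on the log2 scale, or 1.311-fold, and 25 of them differed at least 2-fold. Without Mut replicate 3 the interaction called 571 genes, and without composition scaling 61.7% of the calls were positive, against 49.7% with it (for the siRNA contrast, 63% against 76.4%).

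In the same model 1033 genes changed with the mutation (6.98%), 605 higher (4.09%) and 428 lower (2.89%). With the siRNA 191 genes changed (1.29%), 146 higher (0.986%) and 45 lower (0.304%), and 124 changed when siSmim30 replicate 1 was left out. With each arm fitted alone, 472 genes changed with the siRNA and 788 with the mutation. The fitted coefficient of variation between replicates was then 0.0392 in IC-21 and 0.0587 in peritoneal cells. The part of this spread in the call counts was not tested. In the shared model both contrasts called 55 genes, which is 5.32% of the genes changed by the mutation and 28.8% of those changed by the siRNA. Of the 55 genes, 44 moved the same way (0.297% of genes tested) and 11 moved opposite ways (0.0743%). The interaction was called for 2 of the 44 and for each of the 11. For the 11 a call largely follows from how they were picked, because opposite effects that both passed add up in their difference. The interaction was called for 265 of the 978 genes changed by the mutation alone (27.1%), for 53 of the 136 changed by the siRNA alone (39%), and for 41 genes changed by neither. For the other 713 and 83 genes, a call in 1 arm is not shown to differ from the other arm. Across the 11735 genes measured in both arms, the log2 fold changes of the arms had a Pearson r of 0.074 and a Spearman rho of 0.052, as a description over genes that share libraries and are not independent replicates.

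**Figure D1:**
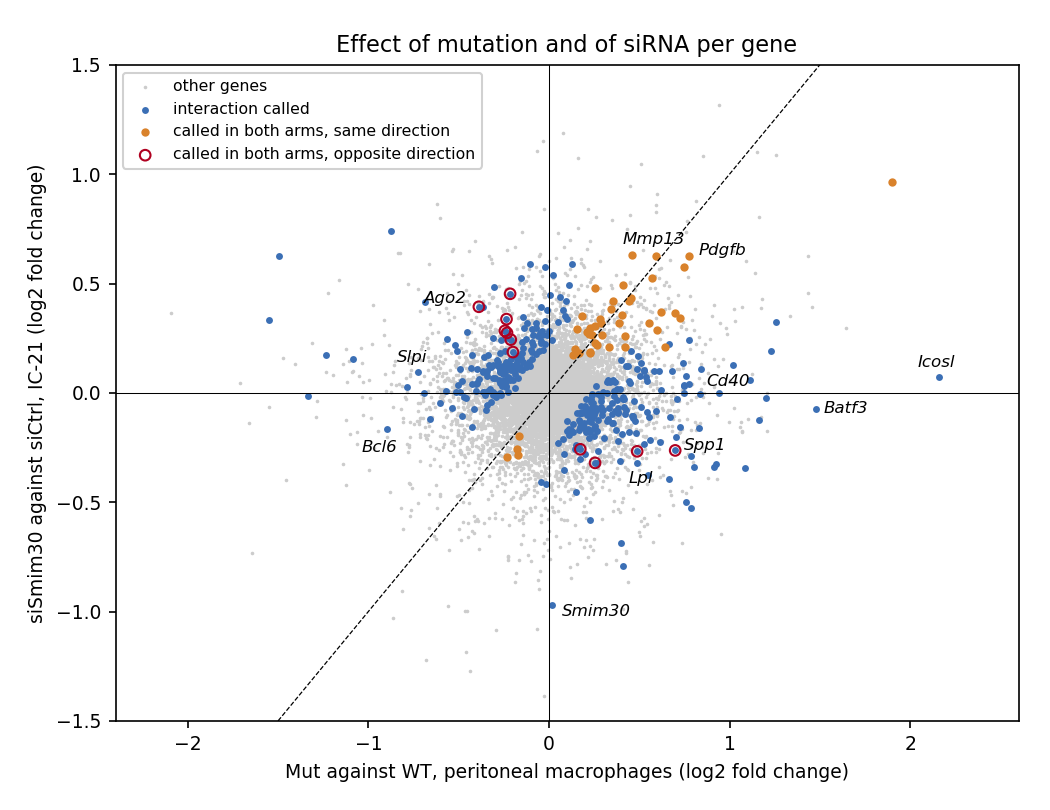
Log2 fold change of each gene with at least 1 CPM in both arms, Mut against WT on the x axis and siSmim30 against siCtrl on the y axis, with 4 of 11735 genes outside the axes. Interaction calls (blue) lie away from the dashed line of equal effects, genes called in both arms with the same direction (orange, which include Ccl4 and Dab2 although their interaction was called) lie near it, and Icosl and Smim30 lie close to an axis.

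The 11 genes that moved opposite ways were led by Spp1, Lpl and Ago2. Spp1 encodes osteopontin, a secreted phosphoprotein and cytokine of activated macrophages, and lies on chromosome 5 (104435118 to 104441050, plus strand). It measured 846, 927 and 1026 CPM in WT and 1444, 1557 and 1544 CPM in Mut, against 1244, 1196 and 1246 CPM with siCtrl and 1056, 997 and 1017 CPM with siSmim30. All Mut libraries lay above all WT libraries and all siSmim30 libraries below all siCtrl libraries. Spp1 rose by 0.70 on the log2 scale with the mutation (edgeR quasi-likelihood adjusted p = 1.87e-14) and fell by 0.26 with the siRNA (adjusted p = 0.00101), an interaction of 0.96 (SE 0.07, adjusted p = 1.03e-13). Lpl, the lipoprotein lipase that macrophages secrete (chromosome 8, 68880491 to 68907448), followed the same pattern. It measured 4265, 4282 and 4741 CPM in WT, 5823, 6368 and 6452 CPM in Mut, with IC-21 at 1581, 1531 and 1604 CPM with siCtrl and 1290, 1328 and 1301 CPM with siSmim30. Its changes were 0.49 and -0.27, an interaction of 0.76 (SE 0.07, adjusted p = 1.24e-11).

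Ago2, the slicing Argonaute that siRNAs are loaded into, went the other way (chromosome 15, 73095844 to 73184935). It measured 967, 864 and 906 CPM in WT and 678, 698 and 716 CPM in Mut. With siCtrl it measured 329, 322 and 319 CPM and with siSmim30 427, 430.5 and 416 CPM. Neither pair of groups overlapped. Ago2 fell by 0.39 with the mutation (edgeR quasi-likelihood adjusted p = 9e-09) and rose by 0.39 with the siRNA (adjusted p = 5.82e-08), an interaction of -0.78 (SE 0.06, adjusted p = 8.67e-13). Among 23 genes of small interfering RNA and double-stranded RNA handling, the interaction was positive for 4 (Tlr3, Eif2ak2, Dhx58 and Tlr8) and negative for Ago2 alone. The list's median interaction was 0.08 against 0.00 over all genes tested, of which 2.51% had an interaction call. Tlr3, the endosomal sensor of double-stranded RNA, had an interaction of 1.09 (adjusted p = 0.00632) while passing in neither arm by edgeR (its mutation effect was called in 3 alternatives, lowest adjusted p 0.0166). The call of Eif2ak2, the double-stranded RNA-dependent kinase, was lost without siSmim30 2 (0.0508), and that of Tlr8, a sensor of single-stranded RNA, without WT 1 or 2, Mut 1 or 2, siCtrl 2 or 3 or siSmim30 1 or 3 (0.0628 to 0.236).

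Other genes lower with the mutation and higher with the siRNA were Emilin2, an extracellular matrix glycoprotein, Rgl1, an effector of Ras-like GTPases, Slc25a44, a mitochondrial carrier of branched-chain amino acids, Stab1, a scavenger receptor, and Mfsd12, a lysosomal transporter. Emilin2 measured 220.3, 225 and 242 CPM in WT, 184, 195 and 204 CPM in Mut, with IC-21 at 55.8, 55.5 and 55 CPM with siCtrl and 73.6, 66.2 and 70.5 CPM with siSmim30. Its interaction was -0.57 (SE 0.08, edgeR quasi-likelihood adjusted p = 2.07e-06). The interactions of Stab1, Slc25a44, Rgl1 and Mfsd12 were -0.67, -0.53, -0.51 and -0.39. The pseudogene Ftl1-ps1, with an interaction of -0.45, may share reads with Ftl1 and is uncertain for that reason. Def8, a regulator of lysosome positioning, and Sft2d2, a vesicle transport protein, were higher with the mutation and lower with the siRNA, with interactions of 0.58 and 0.43. The interactions of these genes kept their calls without any 1 library and in each other fit tried, but some single-arm calls did not. These genes were picked for opposite calls in both arms, which favours an interaction call. The mutation call of Def8 was lost without WT 1 or 2, Mut 1 or 3, siCtrl 2 or 3 or any siSmim30 library (adjusted p 0.0523 to 0.309). That of Stab1 was lost without WT 2 or 3 or Mut 1 or 2 (0.114 to 0.256), and that of Sft2d2 without WT 1 or 2, Mut 1 or 3, siCtrl 2 or siSmim30 1 (0.0504 to 0.179). The siRNA call was lost for Rgl1 and Stab1 without siCtrl 2 (0.0584 and 0.0632), for Sft2d2 without siCtrl 1 or 2 or siSmim30 3 (0.0558 to 0.0948), for Mfsd12 without siCtrl 2 or 3 or siSmim30 1 or 3 (0.0524 to 0.132) and for Ftl1-ps1 without siCtrl 1 or 3 or siSmim30 1 or 2 (0.0929 to 0.143). In other fits the mutation call was lost for Def8 (6 fits), Stab1 (7) and Sft2d2 (4), DESeq2 among them for each. The opposite class held 6 genes without siCtrl replicate 2.

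**Figure D2:**
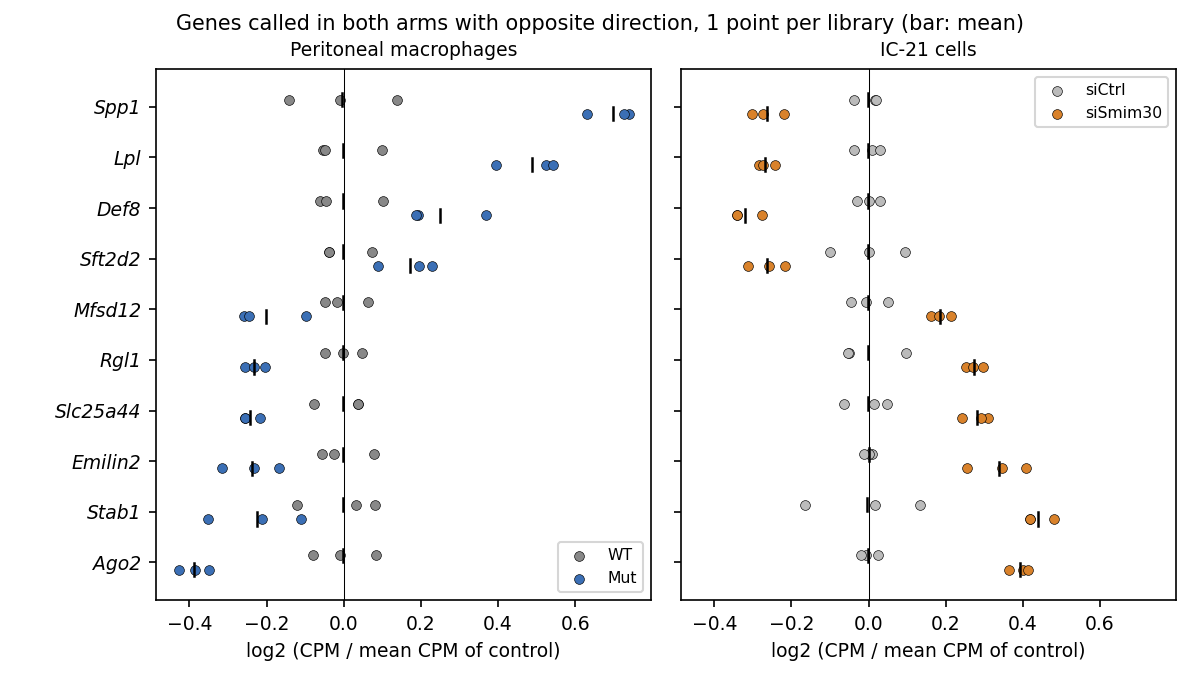
Log2 of CPM over the control mean for the 10 protein-coding genes called in both arms with opposite direction, 1 point per library and a bar at the mean of 3, peritoneal macrophages on the left and IC-21 on the right. Spp1, Lpl, Def8 and Sft2d2 lie right of 0 in Mut and left of 0 in siSmim30, and Ago2, Stab1, Emilin2, Slc25a44, Rgl1 and Mfsd12 lie the other way.

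Of the 372 interaction calls, 265 were genes called with the mutation and not with the siRNA. Icosl, whose product binds ICOS on T cells (chromosome 10, 78069302 to 78083913), had the largest positive interaction by the naming rule. It measured 13.7, 13.1 and 12.9 CPM in WT and 55, 59.7 and 62.3 CPM in Mut, but 55.5, 58.1 and 55.6 CPM with siCtrl and 57.4, 63.7 and 57.2 CPM with siSmim30. The Mut values lay above all WT values, and the IC-21 groups overlapped at 55.5 to 63.7 CPM. The siRNA effect was 0.07 (adjusted p = 0.819) and the interaction 2.09 (SE 0.11, 95% interval 1.86 to 2.32, edgeR quasi-likelihood adjusted p = 2.55e-19). Cd40, the costimulatory receptor that binds CD40 ligand, measured 181, 190.5 and 175 CPM in WT, 371, 309.6 and 296 CPM in Mut, with IC-21 at 61.4, 59.2 and 54.8 CPM with siCtrl and 59.3, 56.6 and 58.5 CPM with siSmim30. The Mut values lay above the WT values and the IC-21 groups overlapped. Its interaction was 0.84 (SE 0.09, adjusted p = 8.96e-07).

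Batf3, a transcription factor best known from cross-presenting dendritic cells, measured 2.81, 3.47 and 2.68 CPM in WT, 6.73, 9.39 and 8.56 CPM in Mut, with IC-21 at 4.86, 5.6 and 5.16 CPM with siCtrl and 4.72, 5.02 and 5.25 CPM with siSmim30. Its interaction was 1.55 (SE 0.29, edgeR quasi-likelihood adjusted p = 0.00061). Beyond Batf3 and Ccl22, the dendritic cell markers did not share a direction, and each was under 5 CPM in every group. Zbtb46 was nearly level, with a Mut mean of 4.25 CPM against a WT mean of 4.19. Ccr7 averaged 1.61 against 1.34, and Flt3 0.857 against 0.335, the latter on 19 and 7 counts. Xcr1 (0.0352 against 0.101) and Cd209a (0.2 against 0.229) were lower in Mut, but under the floor in both groups. Fcgr1, the high-affinity IgG receptor, Ptchd1, a patched-domain membrane protein, Il4i1, a secreted amino acid oxidase, and Rnf180, a ubiquitin ligase, had interactions of 1.23, 1.28, 1.05 and 1.14, each with a rise in Mut and no call with the siRNA. P2ry6, a receptor for UDP, had an interaction of 1.04, which was lost without siCtrl 1 or siSmim30 1 (adjusted p 0.0904 and 0.0638). Icam1, the adhesion receptor for LFA-1, and Klf6, an immediate early transcription factor, were abundant genes of the same kind, with interactions of 0.37 (adjusted p = 0.000349) and 0.31 (adjusted p = 0.00197).

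Several inhibitors and receptors had a negative interaction. Slpi, a secreted leukocyte protease inhibitor that LPS induces (chromosome 2, 164354070 to 164389095), measured 429.5, 445 and 439.9 CPM in WT and 262, 243 and 289 CPM in Mut. In IC-21 it measured 70.2, 73.6 and 78.4 CPM with siCtrl and 81, 80.1 and 76.6 CPM with siSmim30, and those groups overlapped. Its interaction was -0.82 (SE 0.08, edgeR quasi-likelihood adjusted p = 5.63e-11). Bcl6, a transcriptional repressor of inflammatory genes in macrophages, measured 37.2, 36.6 and 33.7 CPM in WT, 17.5, 18.8 and 20.9 CPM in Mut, with IC-21 at 18.9, 18.4 and 19.5 CPM with siCtrl and 13.2, 18.6 and 18.8 CPM with siSmim30. All Mut libraries lay below all WT libraries, and the IC-21 groups overlapped. Its interaction was -0.73 (SE 0.16, adjusted p = 0.00328). Slco4a1, an organic anion transporter, and Syne3, a nuclear envelope nesprin, had interactions of -0.81 and -0.74. Mrc1, the mannose receptor, and Siglec1, the sialoadhesin of resident macrophages, had interactions of -0.38 and -0.51. Thbs1, thrombospondin, had the largest negative interaction by the naming rule, -1.10 (adjusted p = 0.00677), but Thbs1, which was also listed as a large peritoneal macrophage marker, measured only 3.16 to 8.61 CPM in IC-21. Its call was lost without siCtrl 2 or siSmim30 1 or 2 (adjusted p 0.0606 to 0.078). Ncapd2, a condensin subunit, Prokr1, a prokineticin receptor, and Cd80, a costimulatory ligand, had interactions of -0.81, -0.79 and -0.70. Prokr1 passed in neither arm, with effects of -0.30 (adjusted p = 0.165) and 0.48 (adjusted p = 0.163). The interaction call was lost for Ncapd2 without WT 3 or Mut 1 or 2, for Prokr1 without those or siCtrl 2 or siSmim30 2 or 3, and for Cd80 without WT 1 or 3, Mut 2 or 3, siCtrl 2 or 3 or siSmim30 1 or 2 (adjusted p 0.0552 to 0.134 over these libraries). For Ncapd2 it was also lost with limma-voom, with all 18 libraries and in a limma-voom fit with 1 weight per arm (0.0511 to 0.196), and for Cd80 with 1 weight per arm (0.0592). The mutation call of Ncapd2 was lost without WT 3 (0.0827) and in 3 other fits (0.0631 to 0.149), and that of Cd80 without WT 1 or 3 or Mut 2 or 3 (0.0768 to 0.168) and in 5 other fits, DESeq2 and limma-voom among them (0.055 to 0.108).

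Genes that changed with the siRNA only, and for which the interaction was called, were mostly higher with siSmim30, as were the siRNA calls as a whole (76.4%). Of the 53 genes, 43 rose with the siRNA and had a negative interaction, and 10 fell and had a positive one. These signs largely follow from the siRNA effect, because it is subtracted in the interaction and no mutation effect was called for these genes. Il1rn encodes the interleukin-1 receptor antagonist. It measured 341, 370.4 and 383 CPM in WT, 397, 368 and 401 CPM in Mut, with IC-21 at 93.4, 104 and 109 CPM with siCtrl and 145, 134 and 132 CPM with siSmim30. The peritoneal groups overlapped and the IC-21 groups did not. The siRNA effect on Il1rn was 0.42 (edgeR quasi-likelihood adjusted p = 1.64e-06) and the interaction -0.33 (SE 0.08, adjusted p = 0.00733). Flna, the actin cross-linker filamin A, rose by 0.23 with the siRNA and had an interaction of -0.33 (adjusted p = 0.00118). Plcxd2, a phospholipase C-like protein, rose by 0.39 and had an interaction of -0.75 (adjusted p = 0.00645), and its siRNA call was lost without siCtrl 1 or 3 or siSmim30 1 or 2 (0.0556 to 0.288).

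The 44 genes that moved the same way, 40 higher and 4 lower, were led by growth factor, protease, chemokine and feedback genes. Pdgfb, a platelet-derived growth factor subunit, measured 42.6, 45.1 and 43 CPM in WT, 74.7, 71.8 and 76.9 CPM in Mut, with IC-21 at 35.6, 36 and 40.8 CPM with siCtrl and 54.4, 58.3 and 61 CPM with siSmim30. It rose by 0.78 and 0.63 on the log2 scale, and the interaction was 0.15 (95% interval -0.05 to 0.35, edgeR quasi-likelihood adjusted p = 0.569). Socs3, a feedback inhibitor of cytokine receptor signalling, measured 276, 286 and 285 CPM in WT, 448, 434 and 380.4 CPM in Mut, with IC-21 at 62.7, 73.9 and 81.6 CPM with siCtrl and 104, 107 and 105 CPM with siSmim30. It rose by 0.57 and 0.53, with an interaction of 0.05 (-0.15 to 0.24). Cxcl2, a neutrophil-attracting chemokine, measured 1244, 1314 and 1292 CPM in WT, 1838, 1735 and 1699.5 CPM in Mut, with IC-21 at 313, 335 and 336 CPM with siCtrl and 489, 414 and 425 CPM with siSmim30. It rose by 0.45 and 0.43, with an interaction of 0.02 (-0.12 to 0.16). For these 3 genes no library of the altered group overlapped its control, and the intervals hold the difference between the arms to at most 0.35 on the log2 scale. The secreted proteases Mmp13 and Mmp12 rose by 0.59 and 0.62 and by 0.41 and 0.49, and the transcription factor Csrnp1 by 0.46 and 0.63.

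Further members were known feedback and receptor genes. The complement anaphylatoxin receptors C3ar1 and C5ar1 rose by 0.41 and 0.36 and by 0.26 and 0.31. Zfp36, which encodes the mRNA-destabilising protein tristetraprolin, rose by 0.29 and 0.32, and Dusp1, a phosphatase of MAP kinases, by 0.34 and 0.39. Csf2, the growth factor GM-CSF, stood at only 0.466 to 0.803 CPM in WT and rose to 3.53, 1.82 and 2.32 CPM in Mut and from 4.43 to 6.06 CPM to 8.43 to 11.4 CPM in IC-21. The interaction was called for Ccl4 (0.33, edgeR quasi-likelihood adjusted p = 0.0276) and for Dab2 (0.43, adjusted p = 0.00435), which rose more with the mutation than with the siRNA. Ccl4, a chemokine for monocytes and T cells, measured 235, 235 and 263 CPM in WT, 447, 382 and 361 CPM in Mut, with IC-21 at 275, 272 and 279.9 CPM with siCtrl and 373, 349.8 and 343 CPM with siSmim30. Its interaction call was lost without WT 1 or 2, Mut 1, any siCtrl library or siSmim30 2 or 3 (adjusted p 0.0597 to 0.165), and with RLE scaling (0.0715), limma-voom (0.0736) and all 18 libraries (0.146). The siRNA call of Dab2, an endocytic adaptor, was lost without siCtrl 1 or 2 or any siSmim30 library (0.0514 to 0.192).

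The 4 genes lower in both arms included 2 of lysosomal and autophagic function. Gaa, the lysosomal acid alpha-glucosidase, measured 255, 261 and 266 CPM in WT, 212, 215 and 237 CPM in Mut, with IC-21 at 154, 147 and 147 CPM with siCtrl and 122, 120 and 123 CPM with siSmim30. It fell by 0.23 and 0.29 on the log2 scale, and the groups did not overlap in either arm. Gabarapl1, an autophagosome protein, Cd82, a tetraspanin, and Prrc2b fell by 0.17 and 0.28, by 0.18 and 0.26 and by 0.17 and 0.20. The mutation call was lost for Gabarapl1 and Cd82 without WT 2 or 3 or Mut 1 or 2 (adjusted p 0.0954 to 0.131 and 0.0636 to 0.351), and for Prrc2b without WT 1 or 3 or Mut 1 or 2 (0.0872 to 0.142). The siRNA call was lost for Gabarapl1 without siCtrl 2 (0.0799), for Cd82 without siCtrl 2 or siSmim30 1 (0.0804 and 0.051) and for Prrc2b without siCtrl 1 or 2 or any siSmim30 library (0.0737 to 0.203). Over the whole lysosome and proton pump list, 9 of 35 genes fell with the mutation (5 without Mut 2) and 2 with the siRNA, 1 and 2 rose, and Mitf, a regulator of lysosomal genes, was higher in both. Over all genes tested, 2.89% fell with the mutation and 0.304% with the siRNA, and 4.09% and 0.986% rose. The siRNA call of Mitf was lost without siCtrl 1 or siSmim30 1 or 3 (0.0631 to 0.16).

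**Figure D3:**
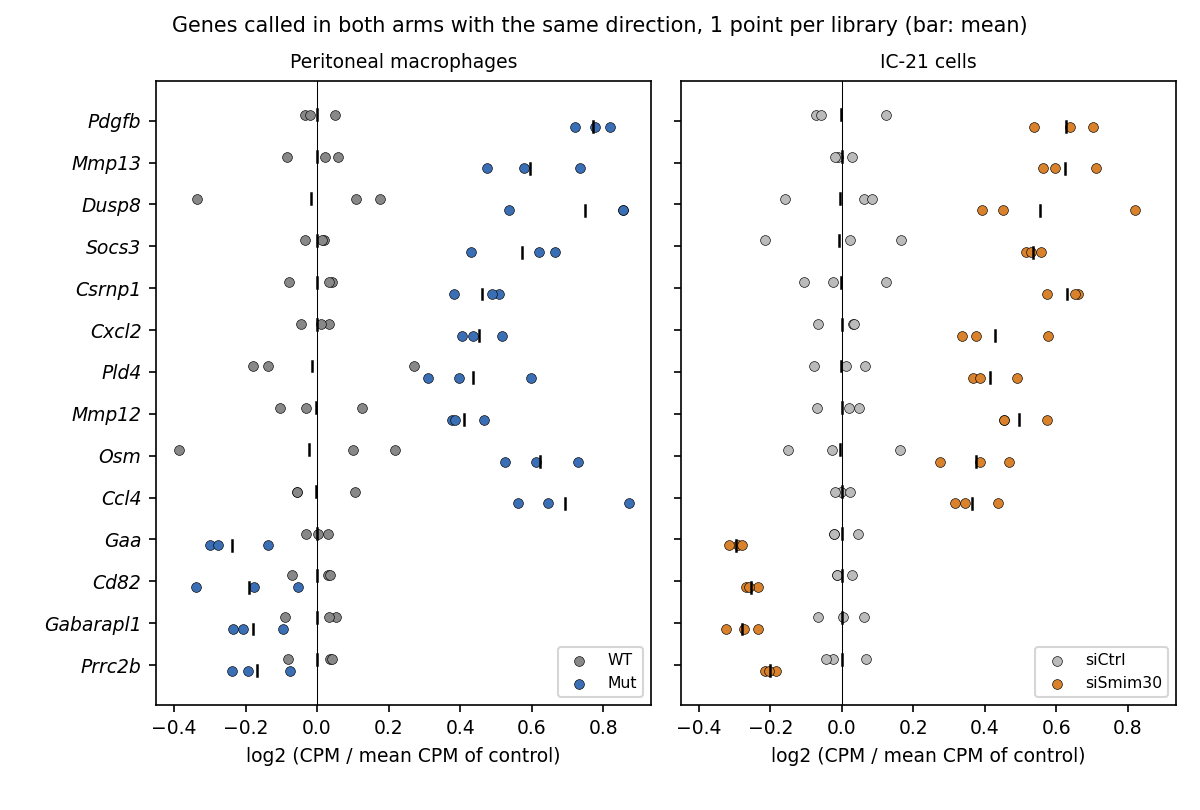
Log2 of CPM over the control mean for the 10 highest-ranked genes called higher in both arms and the 4 called lower, 1 point per library and a bar at the mean of 3, peritoneal macrophages on the left and IC-21 on the right. The Mut and siSmim30 points of Pdgfb, Mmp13, Socs3 and Cxcl2 lie right of all control points, and those of Gaa lie left of them.

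The promoters of Cxcl2 and Socs3 are shown because these genes rose by nearly the same amount in both arms, and those of Cxcl10 and Stat2 because they rose with the mutation and carry a positive interaction. Each window runs from 250 bases before to 50 after the RefSeq start (GRCm38.p6), 5′ to 3′ on the gene's strand. Capitals mark motif matches on either strand, namely the NF-kB consensus, the interferon-stimulated response element core (GAAA, any 2 bases, GAAA), the AP-1 site TGANTCA and the STAT site (GAS) TTCNNNGAA. The capitals in Cxcl2 are 2 overlapping NF-kB matches and those in Socs3 a GAS match. Those in Cxcl10 are a response element core, 2 NF-kB matches and an AP-1 match, and those in Stat2 a response element core on the other strand. The window of Icosl, not printed, held no match to these motifs. For Spp1, also not printed, the window from 104434861 held a response element core and that from 104435942 no match.
Cxcl2 (chr5:90903649-90903948, plus strand): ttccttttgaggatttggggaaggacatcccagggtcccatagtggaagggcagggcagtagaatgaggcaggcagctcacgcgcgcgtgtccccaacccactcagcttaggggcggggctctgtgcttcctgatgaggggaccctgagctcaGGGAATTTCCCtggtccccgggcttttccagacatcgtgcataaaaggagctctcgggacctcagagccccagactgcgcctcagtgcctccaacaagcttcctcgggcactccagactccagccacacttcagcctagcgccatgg
Socs3 (chr11:117969317-117969616, minus strand): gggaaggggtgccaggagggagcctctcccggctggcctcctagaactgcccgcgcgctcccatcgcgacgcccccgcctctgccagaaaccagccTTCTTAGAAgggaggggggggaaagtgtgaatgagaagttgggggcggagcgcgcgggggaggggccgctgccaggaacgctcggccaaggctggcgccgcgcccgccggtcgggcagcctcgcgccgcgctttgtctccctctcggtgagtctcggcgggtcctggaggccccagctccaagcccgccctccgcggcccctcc
Cxcl10 (chr5:92348840-92349139, minus strand): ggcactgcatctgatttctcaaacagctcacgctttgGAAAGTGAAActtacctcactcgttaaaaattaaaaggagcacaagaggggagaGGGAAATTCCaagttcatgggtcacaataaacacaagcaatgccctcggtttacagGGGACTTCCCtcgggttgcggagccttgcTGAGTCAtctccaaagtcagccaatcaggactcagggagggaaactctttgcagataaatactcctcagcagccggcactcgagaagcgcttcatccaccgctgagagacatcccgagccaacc
Stat2 (chr10:128270248-128270547, plus strand): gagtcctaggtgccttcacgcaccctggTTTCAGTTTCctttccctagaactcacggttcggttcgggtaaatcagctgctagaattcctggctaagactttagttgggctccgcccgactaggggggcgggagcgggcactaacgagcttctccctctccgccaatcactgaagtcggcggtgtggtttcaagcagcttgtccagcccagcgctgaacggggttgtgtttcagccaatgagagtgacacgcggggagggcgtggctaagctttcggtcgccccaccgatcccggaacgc

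Of the 40 genes higher in both arms, 33 matched a promoter in the RefSeq table. Of those, 6 (18.2%) held an NF-kB match, against 6.16% of 9628 tested genes with a promoter and 5.14% of all 27025 genes with one. An AP-1 match was held by 6 (18.2%), against 6.29% of the tested and 8.97% of all genes. A response element core was held by 1 (3.03%), against 3.96% and 3.99%. Among the type I interferon response genes below, 29 of 40 matched and 55.2% held a response element core. Of the genes with a positive interaction, 152 of 185 matched and 9.21% held a response element core, and of those with a negative interaction 146 of 187 matched and 6.16% did. An AP-1 match was held by 11.2% of the positive set and 11.6% of the negative set. Of the 11 genes that moved opposite ways 7 matched, and 2 of those (28.6%) held a response element core. These matches describe letters in a window and were not tested.

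Cytokine and chemokine genes were among those that rose in both systems. Of 34 cytokine and chemokine genes tested, 18 rose and none fell with the mutation, 8 rose and 1 fell with the siRNA, and 5 rose in both (Cxcl2, Osm, Csf2, Ccl3 and Ccl4). Over all genes tested, 4.09% rose with the mutation, 0.986% rose with the siRNA and 0.297% moved the same way in both. The list's median log2 fold change was 0.49 with the mutation and 0.28 with the siRNA, against 0.00 over all genes tested in each case. The interaction was called for 5 of the 34, against 2.51% of all genes tested. It was positive for Spp1, Cxcl10, Csf1 and Ccl4 and negative for Il1rn, with a list median of 0.27, and between 1 and 7 were positive over the alternatives. The call of Csf1, the macrophage growth factor, was lost without 8 of the 12 libraries (WT 1, Mut 1 and 2, siCtrl 1 and 3 and each siSmim30, adjusted p 0.0563 to 0.14). The siRNA call was lost for Osm, oncostatin M, without siCtrl 1 or 3 or siSmim30 1 or 2 (0.082 to 0.156) and for Ccl3 without siCtrl 1 or 3 (0.138 and 0.0943), with limma-voom (0.153) and with 1 weight per arm (0.0668). Il1b, the gene of interleukin-1 beta, measured 766, 822 and 900 CPM in WT, 2571, 2384 and 1786 CPM in Mut, with IC-21 at 171, 205 and 234 CPM with siCtrl and 352, 317 and 275 CPM with siSmim30. Neither pair of groups overlapped. Il1b rose by 1.44 with the mutation (edgeR quasi-likelihood adjusted p = 0.000955), its siRNA effect was 0.63 (adjusted p = 0.194) and its interaction 0.81 (95% interval 0.27 to 1.35, adjusted p = 0.154). Il6 measured 53.2, 54 and 54.1 CPM in WT, 150, 116 and 102 CPM in Mut, with IC-21 at 79.8, 92.9 and 93.6 CPM with siCtrl and 135, 100 and 116 CPM with siSmim30. Its effects were 1.18 (adjusted p = 0.00369) and 0.39 (adjusted p = 0.426), and its interaction 0.79 (0.26 to 1.31, adjusted p = 0.154). By edgeR the mutation effect on Il1b and Il6 is therefore not shown to differ from the siRNA effect. With DESeq2 the interaction was called for both (adjusted p 0.0206 for Il1b and 0.0152 for Il6), as was the siRNA effect on Il1b (0.00798). The Il1b interaction was also called without Mut replicate 3 (0.0477) and that of Il6 with no filter on low counts (0.0131).

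Tnf measured 2225, 2377 and 2323 CPM in WT, 2970.5, 2694 and 2657 CPM in Mut, with IC-21 at 448, 405 and 409 CPM with siCtrl and 499, 461 and 456 CPM with siSmim30. It rose by 0.26 with the mutation (edgeR quasi-likelihood adjusted p = 0.000114), and its siRNA effect was 0.17 (adjusted p = 0.0858), which was called for Tnf in 5 alternatives, DESeq2 among them (0.0433). Ccl2, a monocyte chemokine, was above control in every altered library of both arms, with effects of 0.77 (adjusted p = 0.0844) and 0.79 (adjusted p = 0.0822) that passed in neither by edgeR. For Ccl2 the siRNA effect was called in 7 alternatives (adjusted p 7.41e-18 to 0.294 over all of them), DESeq2 and limma-voom among them, and the mutation effect in 3 (0.00324 to 0.284), DESeq2 and the fit without Mut replicate 3 among them. The interaction was 0.10 (95% interval -0.04 to 0.24) for Tnf and -0.02 (-0.65 to 0.61) for Ccl2, a narrow interval for Tnf and a wide one for Ccl2. Csf3, the growth factor G-CSF, and Ccl7 rose with the siRNA by 1.19 and 0.86, with interactions of -1.11 (adjusted p = 0.144) and -0.27 (adjusted p = 0.695), and the siRNA call of Csf3 was lost without siCtrl 2 (0.0633). The interaction of Csf3 was called with no filter (4.17e-05), with DESeq2 (0.0163) and without siCtrl 3 (0.0357).

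Interferon response genes rose with the mutation and none was called with the siRNA, yet few of them passed the test of the difference. Of 40 type I interferon response genes, 25 rose (4.09% of all genes tested did) and none fell with the mutation, with a median of 0.53. With the siRNA none of the 40 passed by edgeR, DESeq2 or limma-voom (1 at an unadjusted p under 0.05 by edgeR), and the median was -0.07. None among 40 is close to the 1.29% of all genes tested that were called with the siRNA. The median interaction was 0.62, and 3 genes passed, Stat2, Dhx58 and Parp14 (against 2.51% of all genes tested), with 16 at an unadjusted p under 0.05. These genes were far less abundant in IC-21, with a median of 5.54 CPM against 138 CPM in the peritoneal cells. In IC-21, 15 of the 40 were under 1 CPM, and Mx1, Zbp1 and Ifi44 had no count, so an effect there could not be seen for those genes. Among the 25 measured in both arms, the interaction estimate was positive for 24, with a median of 0.59. The median over all genes measured in both arms was 0.00.

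Stat2, a subunit of the interferon-activated transcription factor ISGF3, measured 201, 239 and 216 CPM in WT, 336, 290.3 and 268 CPM in Mut, with IC-21 at 27.1, 25.6 and 24.1 CPM with siCtrl and 23.2, 21.8 and 22.7 CPM with siSmim30. Every Mut value was above every WT value and every siSmim30 value below every siCtrl value. Its mutation effect was 0.44 (edgeR quasi-likelihood adjusted p = 5.74e-05), its siRNA effect -0.18 (adjusted p = 0.629) and its interaction 0.62 (SE 0.12, adjusted p = 0.00451). Parp14, a mono-ADP-ribosyltransferase induced by interferon, had an interaction of 0.41 (adjusted p = 0.00175). Dhx58, which encodes the RNA sensor LGP2, had one of 0.81 (adjusted p = 0.0327) at 4.52 to 7.12 CPM in IC-21. The chemokine Cxcl10, which interferon and LPS both induce, measured 47.1, 48.4 and 44.5 CPM in WT, 108, 86.5 and 76.5 CPM in Mut, with IC-21 at 37.3, 31.8 and 27.6 CPM with siCtrl and 34.2, 28.4 and 33.4 CPM with siSmim30. Its interaction was 0.94 (SE 0.19, adjusted p = 0.0241). The calls were lost for Stat2 without siCtrl 1 or 2 or any siSmim30 library (adjusted p 0.0685 to 0.0994) and for Parp14 with limma-voom (0.0991). They were lost for Dhx58 without WT 1 or 3, Mut 2 or any IC-21 library (0.05 to 0.205) and with RLE scaling (0.0599), limma-voom (0.216) and 1 weight per arm (0.123), and for Cxcl10 without any WT library, Mut 2, siCtrl 2 or any siSmim30 library (0.0535 to 0.104).

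The Mut libraries differed among themselves in this response. Against the WT mean, the median of the 40 interferon response genes was 0.80 in Mut replicate 1, 0.50 in Mut replicate 2 and 0.29 in Mut replicate 3, while the WT libraries lay between -0.12 and 0.12. In IC-21 the median of the 25 genes measured there was -0.11, -0.13 and -0.10 in the siSmim30 libraries and between -0.04 and 0.05 in the siCtrl libraries. All Mut libraries thus lay above all WT libraries, and all siSmim30 libraries slightly below all siCtrl libraries. Without Mut replicate 3 the interaction was called for 11 of the 40 and without Mut replicate 1 for 9. It was called for 1 without siCtrl replicate 1 or 2 or without any of the siSmim30 libraries, for 1 with limma-voom, for 13 with DESeq2 and for 12 with no filter on low counts. The mutation effect was called for 12 of the 40 without WT replicate 1, for 16 without WT replicate 3 and for 10 when that arm was fitted alone. Of 13 interferon-inducible GTPases, 9 rose with the mutation by edgeR and none was called with the siRNA (1 at an unadjusted p under 0.05, none by DESeq2 or limma-voom). Over all genes tested, 4.09% rose with the mutation, 1.29% were called with the siRNA and 2.51% in the interaction. None among 13 is close to the siRNA and interaction shares. The 9 became 4 without WT 1, 5 without WT 3, siCtrl 1 or 3 or siSmim30 2 or 3, and 1 when that arm was fitted alone. None of the interferon-inducible GTPases was called in the interaction by edgeR (4 at an unadjusted p under 0.05) or limma-voom and 1 by DESeq2, against 3 without Mut 3 and 4 with no filter, and the medians were 0.63, -0.15 and 0.74. The 16 genes of MHC class I presentation had 4 positive interaction calls, against 1.25% of all genes tested. These were Psme1, Psme2, Psmb9 and Psmb10, which encode proteasome activator and immunoproteasome subunits. Of those 4, the call of Psme1 was lost without siSmim30 2 (adjusted p = 0.0739), that of Psmb10 without siCtrl 2 or siSmim30 2, that of Psme2 without siCtrl 3 or siSmim30 1 or 2, and that of Psmb9 without 9 of the 12 libraries (all but WT 2, Mut 3 and siSmim30 2).

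**Figure D4:**
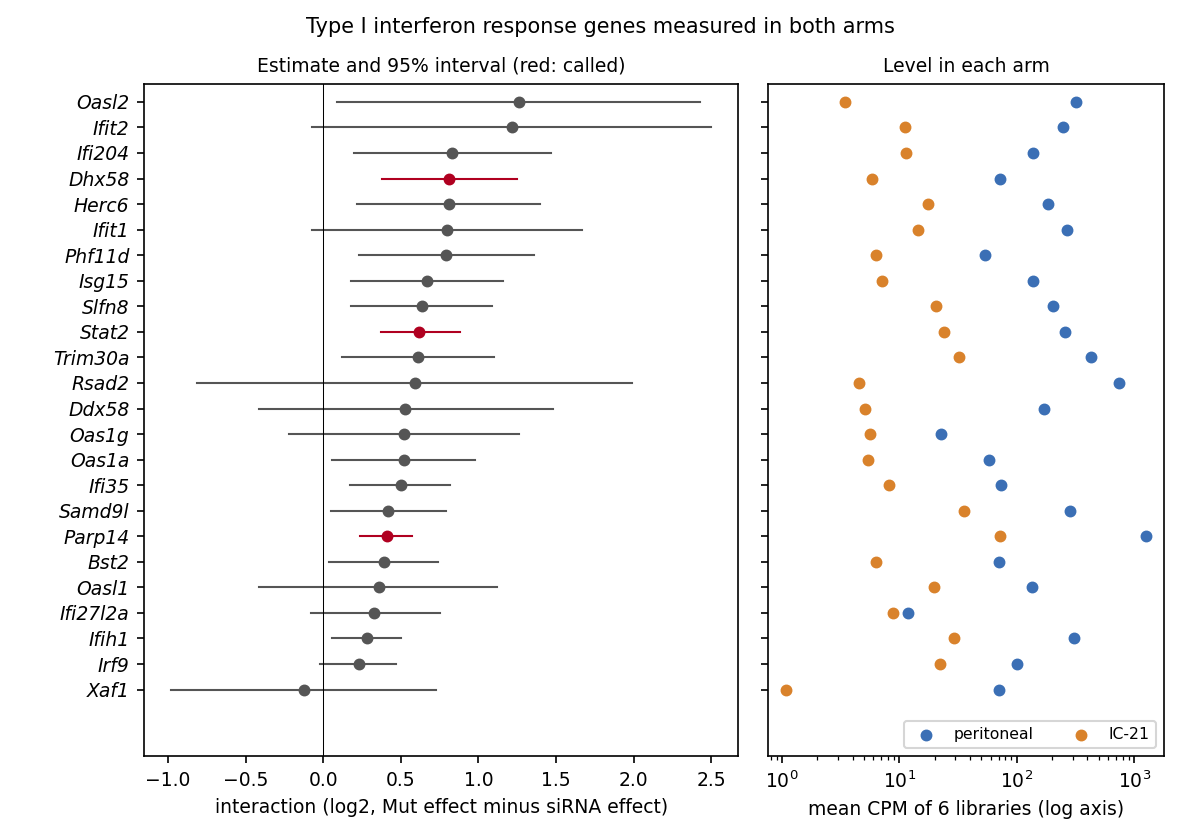
Left, interaction estimate and 95% interval of 24 of the 25 type I interferon response genes with at least 1 CPM in both arms, called genes in red; right, mean CPM of the 6 libraries of each arm on a log axis. Of the 24 estimates drawn 23 lie right of 0, 3 are called, and the IC-21 levels lie below the peritoneal levels for all 24.

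Negative regulators of inflammation were also among the genes that rose in both arms. Of 25 such genes, 10 rose and 2 fell with the mutation, 6 rose with the siRNA, and 5 rose in both (Socs3, Zfp36, Dusp1, Dusp16 and Il4ra), with medians of 0.15 and 0.24. The interaction was called for Bcl6 (negative, above) and Atf3 (0.25, edgeR quasi-likelihood adjusted p = 0.0306), and the list median was 0.01. The Atf3 call was lost without 9 of the 12 libraries (all but WT 2, Mut 3 and siCtrl 3, adjusted p 0.0515 to 0.149). The siRNA call of Dusp16 was lost without siCtrl 1 or siSmim30 1 or 3 (0.0646 to 0.173) and its mutation call without WT 3 (0.0787), and the mutation call of Il4ra without WT 2 or Mut 2 (0.104 and 0.0939). In the list of TLR4 signalling and NF-kB feedback, 11 of 36 genes rose with the mutation (7 without WT 1 or Mut 1) and 3 with the siRNA (5 with DESeq2), and the interaction was positive for Cd40, Icam1 and Tlr4 and negative for Irak2, with a list median of -0.02. The call of Tlr4, the LPS receptor, was lost without any library but WT 3 or Mut 3 (0.0568 to 0.172), and that of Irak2, a kinase of that pathway, without WT 2 or 3, Mut 2, siCtrl 1 or 2 or siSmim30 1 (0.0665 to 0.13). Of 18 immediate early genes, 7 rose with the mutation and 4 with the siRNA, and 1 interaction was called, that of Klf6. The share called over all genes tested was 2.51% for the interaction, 6.98% with the mutation and 1.29% with the siRNA, and 0.297% moved the same way in both arms. The siRNA count of the immediate early genes was 1 without siCtrl 1 or siSmim30 1 and 2 without siSmim30 3.

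Metabolic and stress lists separated the arms in places. Of all genes tested, 2.51% had an interaction call, 6.98% a mutation call and 1.29% an siRNA call. Of 22 targets of ATF4, the transcription factor of the amino acid response, 7 rose and 2 fell with the mutation (4 and 1 without WT 1) and 1 rose with the siRNA. The interaction was positive for Asns (0.67, edgeR quasi-likelihood adjusted p = 3.76e-05), Psat1 (0.57), Mthfd2 (0.49) and Pck2 (0.51), and negative for Gdf15 (-0.60, adjusted p = 1.8e-05). The call of Pck2 was lost without Mut 2 (0.0522). Asns, asparagine synthetase, measured 18.3, 19.9 and 20.5 CPM in WT, 29.8, 29.6 and 29.4 CPM in Mut, with IC-21 at 104, 102 and 98.5 CPM with siCtrl and 94.8, 93.5 and 99.9 CPM with siSmim30. Asns lies within 20 Mb of Smim30, so a linked difference between the mouse lines cannot be told apart from an effect of the mutation. Gdf15, a stress-induced cytokine, measured 255, 272 and 262 CPM in WT, 192, 181 and 212 CPM in Mut, with IC-21 at 33.2, 32.4 and 29.9 CPM with siCtrl and 36.9, 37.6 and 33 CPM with siSmim30. The Mut and WT values of both genes did not overlap, and the IC-21 values of both did. Of 25 targets of NRF2, the regulator of antioxidant genes, 6 fell (3 without Mut 2) and 1 rose with the mutation and none was called with the siRNA by edgeR (6 at an unadjusted p under 0.05) or limma-voom and 2 by DESeq2. The interaction was negative for 4 and positive for none, among them Hmox1 (-0.46, adjusted p = 1.01e-05), which encodes heme oxygenase, and Ftl1 (-0.31, adjusted p = 0.00181), the ferritin light chain. The call of Osgin1 was lost without WT 3, Mut 1 or 2 or siSmim30 1 (adjusted p 0.051 to 0.0813), and that of Srxn1 without WT 2 or 3 or Mut 1 or 2 (0.0568 to 0.133). The mutation call of Ftl1 was lost without Mut 2 (0.0606).

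The glycolysis and HIF-1 list showed 6 of 28 genes higher with the siRNA (Tpi1, Ldha, Pgk1, Slc2a1, Slc16a3 and Bnip3) and 2 higher with the mutation, with medians of 0.10 and 0.06. Bnip3, a mitophagy receptor induced by hypoxia, had the only interaction call (-0.69, edgeR quasi-likelihood adjusted p = 0.0486), which was lost without 8 of the 12 libraries (WT 2 and 3, Mut 2 and 3, siCtrl 2 and 3 and siSmim30 1 and 2). The siRNA call of Slc16a3, a lactate exporter, was lost without WT 2, siCtrl 1 or 2 or siSmim30 1 or 2 (0.0539 to 0.252). That of Slc2a1, a glucose transporter, was lost without siCtrl 2 or siSmim30 1 or 3 (0.108 to 0.144), that of Ldha, lactate dehydrogenase, without siCtrl 1 or siSmim30 3 (0.217 and 0.109) and that of Pgk1, a glycolytic kinase, without siCtrl 3 (0.0571). Of 45 oxidative phosphorylation genes none was called in any of the 3 contrasts by edgeR, DESeq2 or limma-voom, with a median interaction of 0.06 and 2 at an unadjusted p under 0.05 in the interaction. Among LXR targets and lipid efflux genes, Lpl and Abcg1, a sterol exporter with an interaction of 0.47 (adjusted p = 0.000462), were positive, 2 of 16 tested. No interaction was called by edgeR, DESeq2 or limma-voom among 40 cell cycle and DNA replication genes (7 at an unadjusted p under 0.05 by edgeR). Over all genes tested, 2.51% had an interaction call, 4.09% rose with the mutation and 0.986% rose with the siRNA. No interaction call among 40 or 45 genes, or 1 among 28, is therefore close to the interaction share.

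Surface and matrix genes gave further differences. For scale, 2.51% of all genes tested had an interaction call, 1.25% positive and 1.26% negative. Of 26 phagocytic and scavenger receptors, the interaction was positive for 2 (Fcgr1 and Fcgr2b) and negative for 4 (Mrc1, Siglec1, Lrp1 and Stab1), and of 15 costimulators and T cell ligands it was positive for 2 (Icosl and Cd40) and negative for 2 (Vsir and Cd80). Of 20 matrix proteases and inhibitors it was negative for 4 (Thbs1, Thbd, Plaur and Timp2) and positive for none, while Mmp12 and Mmp13 of the same list rose in both arms. Lrp1, an endocytic receptor with an interaction of -0.37, was lost in 5 other fits, among them limma-voom and the fit without composition scaling (adjusted p 0.0567 to 0.264), and Vsir, the checkpoint ligand VISTA at -0.38, with limma-voom (0.0671). The call of Thbd was lost without 8 libraries (0.0586 to 0.153), that of Fcgr2b without 8 (0.069 to 0.137), that of Plaur without 6 (0.0814 to 0.149) and that of Timp2 without Mut 2, siCtrl 2 or siSmim30 2 (0.0535 to 0.0685).

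**Figure D5:**
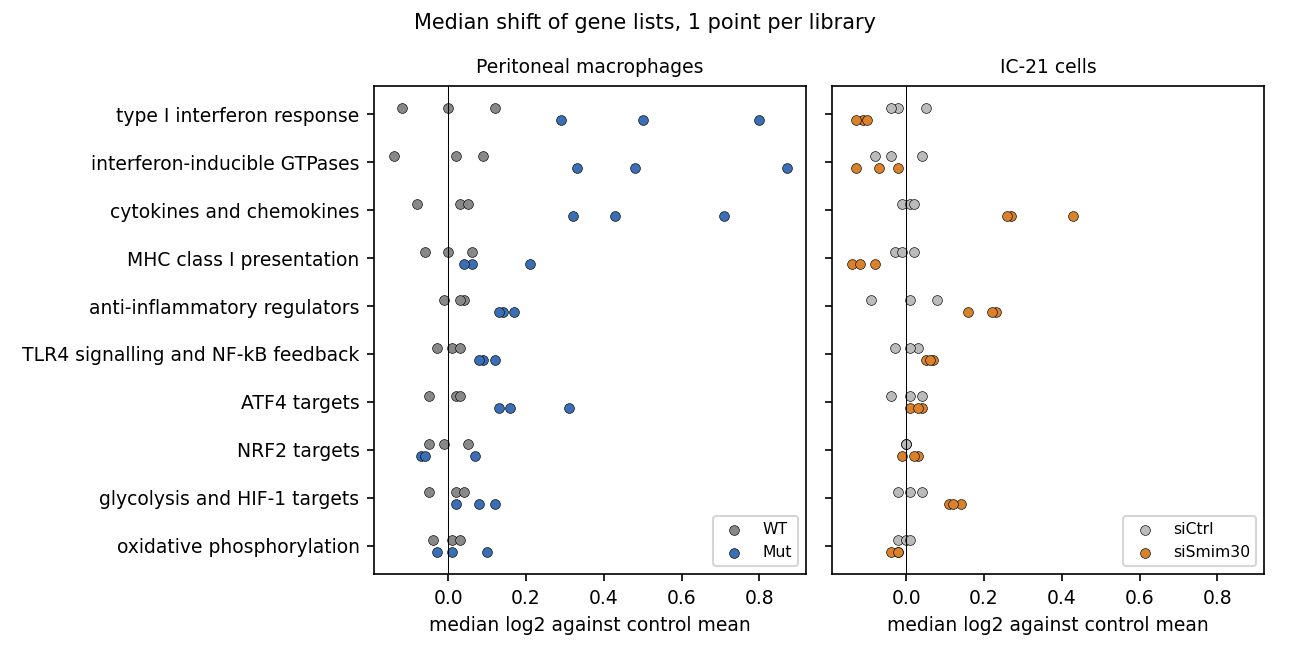
Median log2 of CPM over the control mean for 10 gene lists in each library, over list members with at least 1 CPM in that arm (0.5 CPM added to both terms), peritoneal macrophages on the left and IC-21 on the right. The interferon lists lie right of 0 in all 3 Mut libraries and near 0 in siSmim30, while the cytokine and anti-inflammatory lists lie right of 0 in Mut and in siSmim30.

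For 7 of the 372 interaction calls the gene averaged under 1 CPM in one of the arms, so the call rests on few counts in that arm. The clearest were G530011O06Rik and Gm15726, which are clone-named, lie side by side on the minus strand of chromosome X (169975043 to 169978917 and 169979047 to 169985232) and were picked out after their values were seen. G530011O06Rik measured 10.8, 13 and 10.2 CPM in WT and 0.321, 0.561 and 0 CPM in Mut, with 0.359 to 1.37 CPM across IC-21. Gm15726 measured 5.36, 6.03 and 5.94 CPM in WT and 0.481, 0.14 and 0 CPM in Mut, with 0.181 to 0.538 CPM across IC-21. Both were thus near or under the floor in every Mut library and low in all IC-21 libraries. Their interactions were -5.47 (SE 0.69) and -5.87 (SE 0.90), which depend on counts at the floor. The other 5 were Socs2, C4b, Ttll11, Gm16425 and Gm42635. Gm42635 lost the call without WT 1 or 2 or Mut 1 or 2, and each of the other 4 without 8 to 10 of the 12 libraries.

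Within 20 Mb of Smim30 on chromosome 6, 99 genes were tested. The mutation raised 10 of them and lowered none, the siRNA raised 1 and lowered none, and the interaction was called for 2, Asns and St7, both positive. Over all genes tested, 4.09% rose with the mutation, 0.986% rose with the siRNA and 1.25% had a positive interaction call, so the siRNA and interaction counts near Smim30 are close to the background. St7, whose product is a membrane protein of little-known function, measured 27.7, 28.1 and 29.7 CPM in WT, 52.9, 48.2 and 44.7 CPM in Mut, with IC-21 at 17.2, 15 and 16.7 CPM with siCtrl and 17, 18.3 and 15.8 CPM with siSmim30. The Mut values lay above all WT values and the IC-21 groups overlapped. Its interaction was 0.68 (SE 0.14, edgeR quasi-likelihood adjusted p = 0.0016). A linked difference between the mouse lines and an effect of the mutation cannot be told apart for the 10 genes raised by the mutation.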

How the data were processed

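RNA was sequenced from 12 libraries in 4 groups of 3. The deposited values are raw read-pair counts per gene, made by the authors with featureCounts 2.0.3 on reversely stranded pairs over exons of GENCODE M25, per the file headers, after HISAT2 alignment, per the submitters' processing notes. In all 18 deposited tables the alignment number in the header differed from the number in the table's own name, so each library's group rests on the series' sample records. Of 55401 gene identifiers, 55141 matched a symbol. The 12 libraries were fitted in one group-means model with edgeR 4.0.16 (TMM scaling, filterByExpr, robust quasi-likelihood F test, R 4.3.3), with Benjamini-Hochberg adjustment over 14804 genes at 0.05. The mutation effect, the siRNA effect and their difference were contrasts of that model. Total counts ran from 6855245 to 12246311, so that a floor of 3 counts limits low genes. The script was tested on simulated data.

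The members, gene lists and tests were chosen with earlier results of these data known. Genes were named by rule. The rule took the 10 largest positive and negative interactions at 4 CPM or more in both arms, genes called in both arms, up to 4 members per list by interaction p, and 8 preset genes, passing over clone names and pseudogenes. Genes outside it were chosen after their values were seen. These are St7, Mitf, C3ar1, C5ar1, Zfp36, Dusp1, Dusp16, Dab2, Csf2, Csf3, Ccl3, Ccl7, Pck2, Tlr8, Fcgr2b, Slc2a1, Tpi1, Ldha, Pgk1, Ftl1-ps1, G530011O06Rik, Gm15726, Gm42635 and Gm16425. Alternatives were other scalings, filters and thresholds, DESeq2 1.42.0, limma-voom (limma 3.58.1), all 18 libraries, a replicate block, each arm alone and leaving out each library. Promoter windows came from RefSeq (GRCm38.p6). The other 6 libraries entered only the fit of all 18. The values of 1 interferon response gene are not reported here by name.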

Additional observations from a re-analysis of the deposited data

Results flagged for a closer look

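Each gene below was singled out because its effect differed between the peritoneal and IC-21 arms by the interaction test (edgeR, adjusted p under 0.05). The value is the log2 effect of the mutation minus that of the siRNA. No explanation was tested.

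Among signalling, surface and secreted proteins the positive differences were Icosl 2.09, Batf3 1.55, Ptchd1 1.28, Fcgr1 1.23, Rnf180 1.14, Il4i1 1.05, P2ry6 1.04, Spp1 0.96, Cxcl10 0.94, Cd40 0.84, Dab2 0.43, Icam1 0.37, Ccl4 0.33, Klf6 0.31, Csf1 0.30, Tlr4 0.28, Atf3 0.25 and Fcgr2b 0.23. Smim30 itself (2610001J05Rik) differed by 0.99, having fallen with the siRNA only. RNA sensing, interferon response and antigen presentation genes differed by 1.09 (Tlr3), 0.81 (Dhx58), 0.81 (Psmb9), 0.62 (Stat2), 0.60 (Psmb10), 0.58 (Tlr8), 0.41 (Parp14), 0.41 (Eif2ak2), 0.39 (Psme2) and 0.37 (Psme1). Metabolic and transport genes differed by 0.76 (Lpl), 0.67 (Asns), 0.57 (Psat1), 0.51 (Pck2), 0.49 (Mthfd2), 0.47 (Abcg1), 0.58 (Def8) and 0.43 (Sft2d2), and St7 by 0.68.

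Negative differences among surface, matrix and secreted proteins were Thbd -1.40, Thbs1 -1.10, Slpi -0.82, Slco4a1 -0.81, Prokr1 -0.79, Cd80 -0.70, Stab1 -0.67, Gdf15 -0.60, Emilin2 -0.57, Siglec1 -0.51, Vsir -0.38, Mrc1 -0.38, Lrp1 -0.37, Il1rn -0.33, Timp2 -0.33, Lyz2 -0.27 and Plaur -0.24. Intracellular proteins with negative differences were Ncapd2 -0.81, Ago2 -0.78, Plcxd2 -0.75, Syne3 -0.74, Bcl6 -0.73, Bnip3 -0.69, Osgin1 -0.54, Slc25a44 -0.53, Rgl1 -0.51, Hmox1 -0.46, Ftl1-ps1 -0.45, Mfsd12 -0.39, Flna -0.33, Ftl1 -0.31, Irak2 -0.27 and Srxn1 -0.25. The macrophage marker Lyz2 lost its call without WT 2, Mut 2, siCtrl 2 or siSmim30 2 (adjusted p 0.0517 to 0.0896).

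For genes under 1 CPM in one of the arms the fitted difference rests on very low counts and is no bound. These were Gm42635 at 2.22, Socs2 at 1.90, C4b at -1.67, Gm16425 at -2.01, Ttll11 at -2.24, G530011O06Rik at -5.47 and Gm15726 at -5.87.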

How the results depend on the processing

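Over the fits with other scalings, filters, tools or libraries, 44 of the 88 named interaction calls were kept throughout and 44 were lost in at least one, and none changed sign. Leaving out single libraries gave 267 to 571 interaction calls (571 without Mut replicate 3), 261 to 558 among genes measured in both arms, 780 to 1198 mutation calls, 124 to 232 siRNA calls, 30 to 57 genes changed in the same direction and 6 to 14 in opposite directions. Of the 372 interaction calls, 307 were shared with DESeq2 (361 calls) and 279 with limma-voom (300 calls). At an adjusted p under 0.1 there were 582 interaction calls, 565 in genes measured in both arms, and 23 opposite genes. At 0.01 there were 166 and 164 interaction calls, 603 mutation calls, 106 siRNA calls, 22 genes changed in the same direction and 6 in opposite directions. A test for a difference over 1.2-fold called 28 genes. The fit of all 18 libraries gave 17 opposite genes. With each arm fitted alone there were 472 siRNA calls, 75 same-direction and 21 opposite genes, and with 1 weight per arm, chosen after seeing the data, 316 siRNA calls; the cause was not tested. Replicate numbers did not pair the libraries (correlations of same-numbered deviations 0.052, -0.05 and 0.103 for WT and Mut, and 0.017, -0.009 and -0.007 for siCtrl and siSmim30). The replicate block gave 410 interaction calls, 361 of them shared, 1070 mutation calls, 202 siRNA calls, 46 same-direction and 13 opposite genes. With that block the interactions of Dhx58 (adjusted p = 0.0668) and Ccl4 (0.0718) and the siRNA effect of Ccl3 (0.0509) were not called. Other interaction calls named above were lost with limma-voom for Bnip3, C4b, Csf1, Gm42635, Irak2, Lyz2, Psmb9, Psmb10, Thbd, Tlr4 and Tlr8, and with no filter for Atf3, Bnip3, Fcgr2b, Irak2, Plaur, Srxn1, Thbd, Tlr4 and Ttll11. Genes that are low in IC-21, among them part of the interferon response list, rest on few counts there. The part of depth in the call counts was not tested.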
